A study of Mus musculus with 2 samples.

Results

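The genes described here are 37 transcripts by which monocytes, macrophages, conventional dendritic cells and plasmacytoid dendritic cells are commonly recognised. They were taken by gene symbol from a written list that was drawn up with earlier results of these data known. All 37 were found among the 24346 genes of the tables. The list holds 8 monocyte genes, 16 macrophage genes, 11 conventional dendritic cell genes and 2 plasmacytoid dendritic cell genes, which are reported apart. RNA was sequenced from cells carrying both Gr-1 and CD11b, surface antigens found together on neutrophils and on part of the monocytes. All cells came from BALB/c mice given 3% dextran sulfate sodium (DSS), a polymer used to cause colitis, for 6 days. Cells of both groups were incubated for 2.5 hours. The control group (n = 1 library) was kept without ATPγS and the ATPγS group (n = 1 library) with it. ATPγS is an ATP analogue that is broken down slowly and acts on nucleotide receptors. The label prints the ATPγS concentration as 100 with the prefix of the unit lost. The labels name neither the organ, nor the sex and age of the mice, nor whether cells of several mice were pooled.

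There was no replicate, so every difference below is between 2 libraries, and no p-value was computed. The values are FPKM, fragments scaled to transcript length and to the number of mapped fragments, which allows levels of different genes to be compared. The depth read from the smallest FPKM steps was 2140000 fragments for the control library and 2857000 for the ATPγS one. The gate was visible in the RNA, with the CD11b gene Itgam at 112 and 144 FPKM (control and ATPγS, in this order throughout) and the neutrophil genes S100a8 and S100a9 at 20604 and 13776 FPKM in the control. Of the genes of the Ly6C antigen, to which Gr-1 antibodies also bind, Ly6c2 stood at 70.9 and 63.7 FPKM and Ly6c1 at 133 and 166 FPKM. Ly6g was not analysed here. None of the 19 neutrophil markers measured reached a 2-fold difference. Among all genes with a mean of at least 20 FPKM, 2.3% were higher by 2-fold or more and 5% lower. The median log2 ratio of the markers was 0.09, with 12 higher and 7 lower beyond counting error, which is described below.

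Monocytes arise in bone marrow, enter inflamed tissue and can become macrophages there, which engulf dead cells and microbes. The receptor for macrophage colony-stimulating factor keeps this lineage alive. Conventional dendritic cells grow under the FLT3 receptor and carry antigen to T cells after a maturation step, while plasmacytoid dendritic cells are specialised producers of type I interferon. Classical monocytes carry both antigens of the gate, and some macrophages and dendritic cells carry CD11b.

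Relative to the control, the ATPγS library held 2 of the 37 genes at a level higher by 2-fold or more and 4 at a level lower by 2-fold or more, while 31 lay between. Higher were Marco, of a scavenger receptor, and Flt3, of the dendritic cell growth factor receptor. Lower were Maf, of a macrophage transcription factor, Ms4a7, of a membrane protein of macrophages, Clec9a, of a receptor for dead cells on cross-presenting dendritic cells, and Fscn1, of the actin-bundling protein of mature dendritic cells. The difference was counted on the log2 ratio of FPKM after adding 1, at a mean of at least 1 FPKM over both libraries, which all 37 genes reached. Among all 18311 genes at that level, 13.8% were higher by 2-fold or more and 9.91% lower by 2-fold or more, so the share of lower genes among the 37 was near that of all genes. The median log2 ratio of the 37 was -0.05, beside 0.01 over all genes, with 16 above 0 and 21 below (19 and 18 when the libraries were rescaled to the same sum). With a pseudocount of 5 in place of 1, or at a mean of at least 5 FPKM, Ms4a7 was the only one of the 6 still past 2-fold, where 3.06% and 7.48% of all genes were higher and 2.52% and 9.04% lower.

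**Figure D1:**
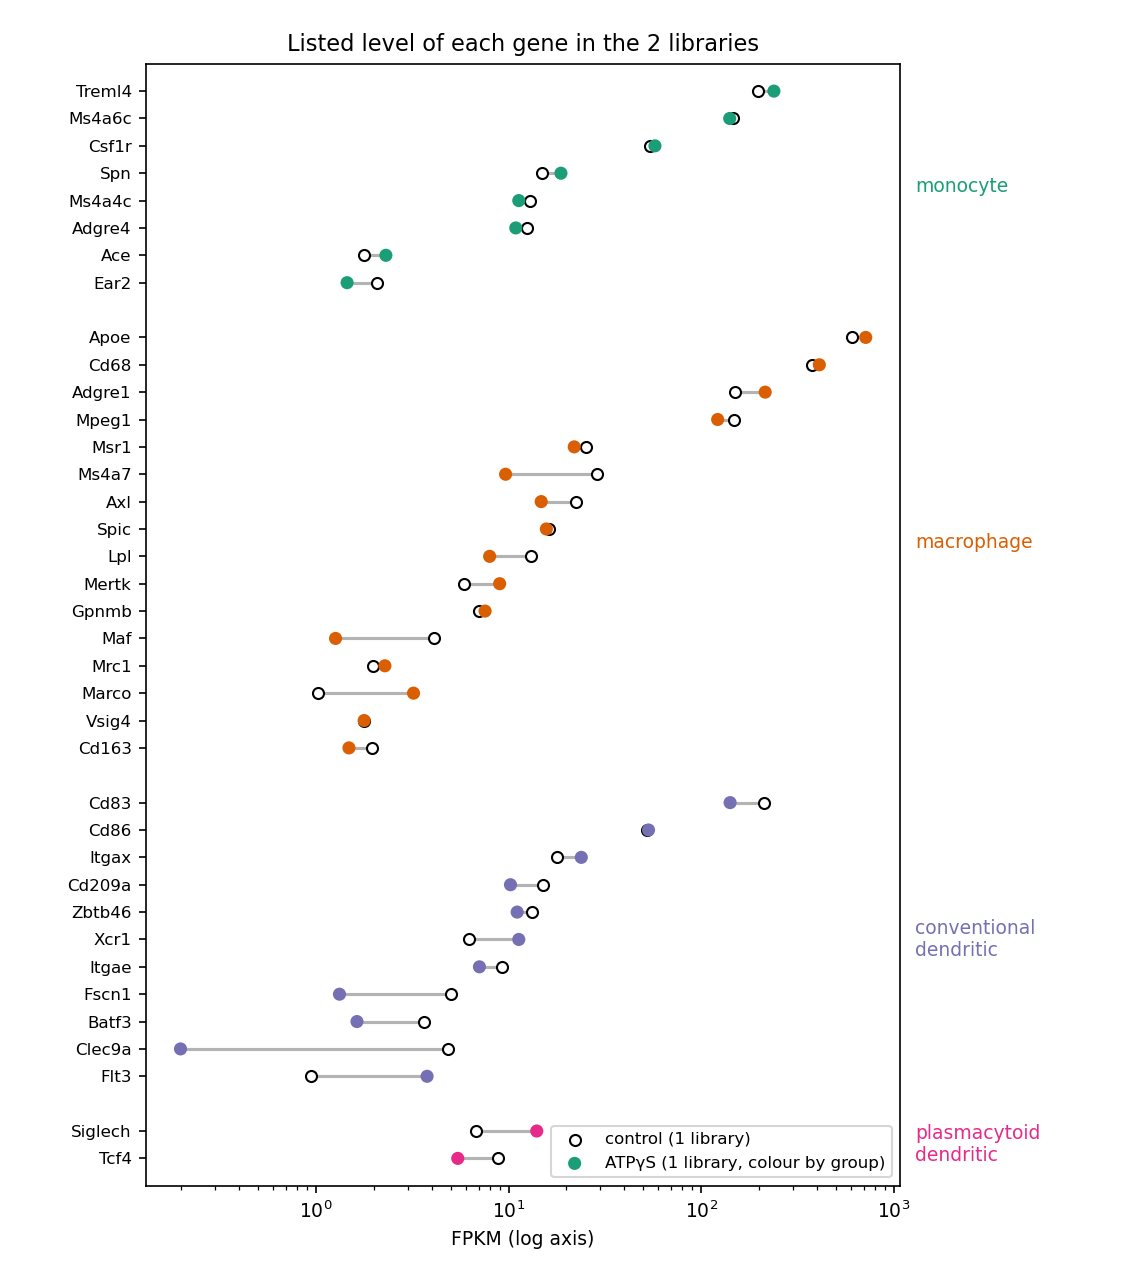
FPKM (log axis) of each of the 37 genes in the control library (open circles) and the ATPγS library (filled circles, coloured by group), ordered by mean level within each group. Most pairs lie close together, and the widest gap is that of Clec9a (4.82 and 0.198 FPKM), while Ms4a7 (28.8 and 9.66 FPKM) has a wide gap at a higher level.

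Of the 6 genes past 2-fold, 5 had a mean of 1 to 5 FPKM. Of the 11 genes with a mean of 1 to 5 FPKM, 2 were higher by 2-fold or more and 3 lower by 2-fold or more, where 21.2% and 10.9% of all genes at that level were. At 5 to 20 FPKM, 0 of 15 were higher and 1 (Ms4a7) was lower, beside 10.3% and 11.2% of all genes. At 20 FPKM or more, 0 of 11 reached 2-fold in either direction, beside 2.3% and 5%. Across the 37 genes, log2 FPKM in one library followed that in the other (Pearson r = 0.91, Spearman rho = 0.90, over genes of the same libraries, which are not replicates).

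Counting error was judged from estimated reads, as a 95% exact binomial (Clopper-Pearson) interval of the FPKM ratio. That interval lay wholly above 1 for 10 of the 37 genes and wholly below 1 for 9, where 23.4% and 23.9% of all genes did so. It covers counting error only and is too narrow as a measure of the whole error. Among 999 olfactory and vomeronasal receptor genes, which myeloid cells are not known to use, the interval lay wholly above 1 for 19.7% and wholly below 1 for 19.3%.

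**Figure D2:**
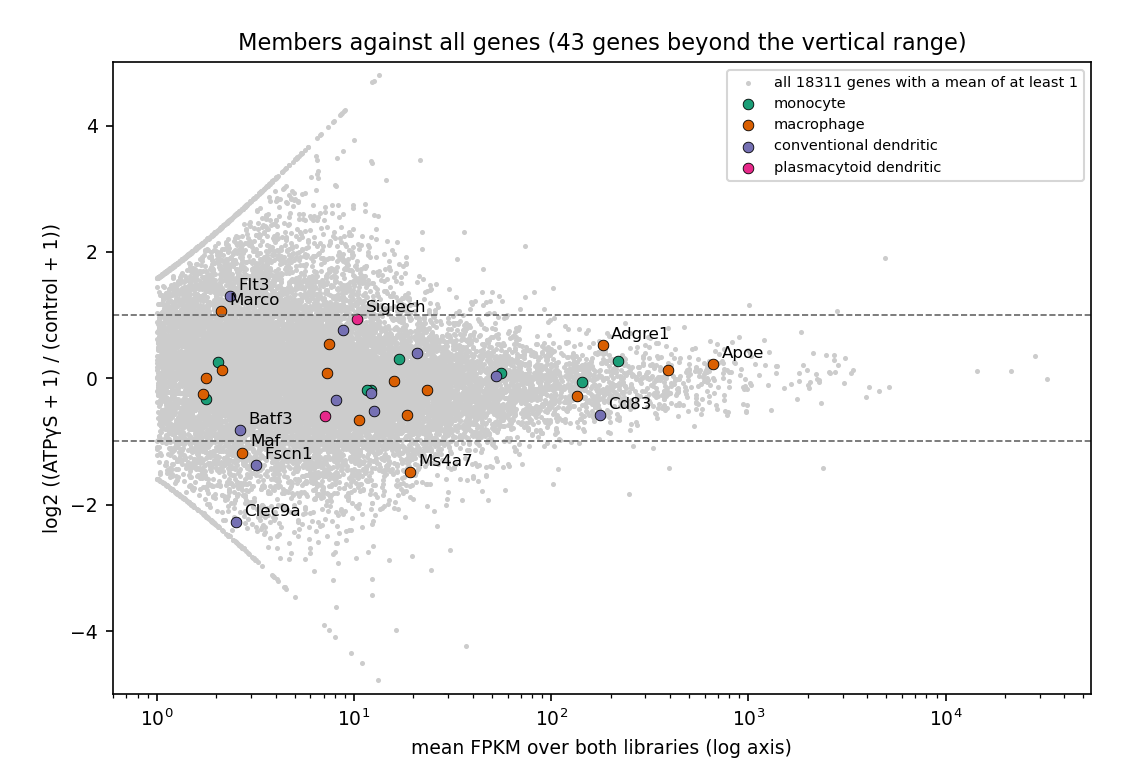
Log2 ratio (ATPγS over control, 1 FPKM added) against mean FPKM (log axis) for the 37 genes, coloured by group, and for all 18311 genes with a mean of at least 1 FPKM (grey). The dashed lines mark 2-fold, and the 6 genes past them lie within the grey cloud.

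The promoters of the genes past 2-fold are shown so that their sequences can be compared. Each is the stretch of 250 bases before the transcription start in RefSeq (GRCm38.p6), 5′ to 3′ on the gene's strand, at the start nearest to the GENCODE transcript with the longest coding part. Maf had no entry. Capitals mark 4 motifs searched on both strands. GAGGAA is a core bound by PU.1 and related factors, TGACGTCA the cAMP response element and TATAAA the TATA box. TGANTCA, where N is any base, is a pattern looser than the AP-1 site. The windows are chr19:11334696-11334945 (minus strand), chr6:129408612-129408861 (plus), chr5:142960105-142960354 (plus), chr1:120505025-120505274 (minus) and chr5:147400490-147400739 (minus). The first 3 sequences belong to genes lower in the ATPγS library and the last 2 to genes that were higher.
Ms4a7: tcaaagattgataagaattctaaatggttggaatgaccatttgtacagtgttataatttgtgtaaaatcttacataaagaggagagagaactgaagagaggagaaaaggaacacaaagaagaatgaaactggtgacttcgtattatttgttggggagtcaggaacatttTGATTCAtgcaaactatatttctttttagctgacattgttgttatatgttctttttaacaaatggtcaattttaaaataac
Clec9a: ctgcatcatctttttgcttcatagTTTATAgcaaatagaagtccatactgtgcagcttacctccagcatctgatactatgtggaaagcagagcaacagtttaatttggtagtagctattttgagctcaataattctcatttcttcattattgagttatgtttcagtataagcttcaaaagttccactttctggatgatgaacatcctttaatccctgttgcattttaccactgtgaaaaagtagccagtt
Fscn1: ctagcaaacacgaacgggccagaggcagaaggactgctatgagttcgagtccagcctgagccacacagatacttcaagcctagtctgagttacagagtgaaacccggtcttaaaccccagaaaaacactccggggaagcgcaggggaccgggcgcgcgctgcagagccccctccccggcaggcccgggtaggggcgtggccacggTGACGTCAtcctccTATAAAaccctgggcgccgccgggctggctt
Marco: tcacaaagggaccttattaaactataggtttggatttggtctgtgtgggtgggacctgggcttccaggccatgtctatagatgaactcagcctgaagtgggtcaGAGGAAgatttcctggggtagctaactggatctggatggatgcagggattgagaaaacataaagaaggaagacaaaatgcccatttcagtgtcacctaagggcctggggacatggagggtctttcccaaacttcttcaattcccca
Flt3: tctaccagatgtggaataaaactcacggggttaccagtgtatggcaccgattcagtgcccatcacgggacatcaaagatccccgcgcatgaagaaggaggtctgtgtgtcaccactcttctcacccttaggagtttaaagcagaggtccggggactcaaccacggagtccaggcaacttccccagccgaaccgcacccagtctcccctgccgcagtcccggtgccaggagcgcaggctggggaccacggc
No motif was shared by all 5 windows. The Fscn1 window held the cAMP response element and a TATA box, and the Ms4a7 window TGATTCA, a match to the looser pattern only. The Marco window held a GAGGAA and the Clec9a window a TATA box on the other strand, far from the start. None of the 4 was found in the Flt3 window, which says only that these letters are not there. Of the 28 members with an entry, 10 held GAGGAA (23% of 27025 genes did), 4 TGANTCA (6.83%), 1 TGACGTCA (1.62%) and 5 TATAAA (13%). A match is a description of the sequence and was not tied to binding in these data.

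The monocyte genes differed little. None of the 8 reached 2-fold in either direction, beside 13.8% higher and 9.91% lower among all genes. So few genes cannot be set apart from those shares. The median log2 ratio was 0.02, and the summed level was 442 FPKM without and 482 FPKM with ATPγS. Csf1r, of the receptor for macrophage colony-stimulating factor and for IL-34, stood at 54.04 and 57.6 FPKM (counting interval of the ratio 0.95 to 1.19). Ms4a6c, of a four-pass membrane protein abundant in monocytes, stood at 146 and 141 FPKM, and its relative Ms4a4c at 12.9 and 11.3 FPKM. The intervals of both include 1 (0.86 to 1.08 and 0.58 to 1.31), so neither gene differed beyond counting error.

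The other 5 genes are better known from the patrolling monocytes that lack high Ly6C. Treml4, of a receptor of the TREM family, was the most abundant of all 8, at 198 and 239 FPKM, and its interval (1.06 to 1.38) was the only one of the group to lie above 1. Spn, of the sialomucin CD43, stood at 15.0 and 18.7 FPKM (interval 0.99 to 1.58). Adgre4, of an adhesion receptor related to F4/80, stood at 12.5 and 10.9 FPKM (0.66 to 1.17). Ace, of angiotensin-converting enzyme, was scarce at 1.77 and 2.31 FPKM, or about 19 and 32 reads. Ear2, of a ribonuclease first described in eosinophils, rested on about 3 reads in each library (2.08 and 1.45 FPKM) and belongs to a family of near-identical genes between which reads can be misplaced. Patrolling and classical monocyte genes therefore showed no common direction, with 4 of the 8 above 0 and 4 below (5 and 3 after rescaling to the same sum).

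The macrophage genes ranged from the most abundant of all 37 to some of the scarcest. Of the 16, 1 was higher by 2-fold or more, 2 lower by 2-fold or more and 13 between. Among all genes the shares were 13.8% higher and 9.91% lower. The median log2 ratio was -0.02 (0.085 when rescaled so that genes at a mean of at least 10 FPKM have a median of 0). The summed level was 1413 FPKM without and 1561 FPKM with ATPγS. Apoe, of the lipid carrier apolipoprotein E, ranked 120 among all genes of the control and 96 in the ATPγS library (611 and 716 FPKM, ratio 1.17, interval 1.10 to 1.24). Cd68, of a lysosomal membrane protein also found in other phagocytes, followed at 375 and 411 FPKM (ratio 1.10, interval 1.002 to 1.20).

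Adgre1, which encodes the macrophage antigen F4/80, had the largest difference of the 4 most abundant macrophage genes (Apoe, Cd68, Adgre1 and Mpeg1). It stood at 149 and 215 FPKM, 1.44-fold higher in the ATPγS library (interval 1.34 to 1.56, about 1035 and 1991 reads). Mpeg1, of the pore-forming protein perforin-2, had the same level as Adgre1 in the control (148 FPKM) and 122 FPKM in the ATPγS library (ratio 0.82, interval 0.76 to 0.88). These 2 genes, close in the control, thus lay on opposite sides in the other library.

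Among transcription factors of the lineage, Maf was 3.26-fold lower in the ATPγS library, at 4.12 and 1.26 FPKM from about 28 and 12 reads (interval of the ratio 0.14 to 0.63). Maf lies on chromosome 8 at 115682942 to 115707794 (GRCm38). Spic, of the factor that directs iron-recycling macrophages of the spleen, stood at 16.2 and 15.7 FPKM (0.69 to 1.38). The 2 factors did not move together.

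The receptors by which macrophages bind dying cells also differed in opposite directions. Mertk, of a TAM receptor kinase that triggers engulfment, stood at 5.85 and 8.995 FPKM, 1.54-fold higher in the ATPγS library (interval 1.10 to 2.17). Axl, of another kinase of the family, stood at 22.5 and 14.8 FPKM, 1.52-fold lower (interval of the ratio 0.53 to 0.81). Axl was the more abundant in both libraries, by a wider margin in the control.

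Scavenger and pattern receptors were mostly scarce. Marco, of a class A scavenger receptor (chromosome 1, 120474538 to 120505024), stood at 1.021 and 3.21 FPKM, 3.14-fold higher from only about 4 and 18 reads (interval 1.05 to 12.3). Msr1, of the other class A receptor listed, was more abundant and differed little, at 25.1 and 21.9 FPKM (0.64 to 1.20). Mrc1, of the mannose receptor, Cd163, of the haemoglobin scavenger receptor, and Vsig4, of a complement receptor of resident macrophages, are typical of tissue macrophages. Their levels were 1.98 and 2.28 FPKM for Mrc1, 1.95 and 1.48 FPKM for Cd163, and 1.78 and 1.78 FPKM for Vsig4. The counting intervals of these 3 include 1, and none exceeded 3 FPKM in either library.

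A further pair of genes act on lipids or mark lipid-laden cells. Lpl, of lipoprotein lipase, stood at 13.1 and 7.98 FPKM, 1.64-fold lower in the ATPγS library (interval of the ratio 0.46 to 0.81). Gpnmb, of a glycoprotein of lipid-laden macrophages, stood at 7.07 and 7.55 FPKM (0.75 to 1.53). Lpl differed beyond counting error and Gpnmb did not, and the difference between the 2 was not tested.

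Ms4a7 (chromosome 19, 11321039 to 11336146) was the one gene with a mean above 5 FPKM to pass 2-fold. It stood at 28.8 and 9.66 FPKM, 2.98-fold lower in the ATPγS library from about 97 and 43 reads (interval of the ratio 0.23 to 0.48). It lies in the cluster of MS4A genes on chromosome 19 that also holds Ms4a4c (11404770 to 11427246) and Ms4a6c (11469366 to 11482192). Those neighbours stood nearly level between the libraries, as given above. Of the relatives outside the 37, Ms4a6b stood at 61.2 and 22.8 FPKM, lower like Ms4a7, and Ms4a6d, chosen after its values were seen, at 83.5 and 74.2 FPKM. The cluster thus held strongly lower and nearly level genes side by side, though reads of near-identical relatives such as Ms4a6b and Ms4a6c can be misplaced.

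**Figure D3:**
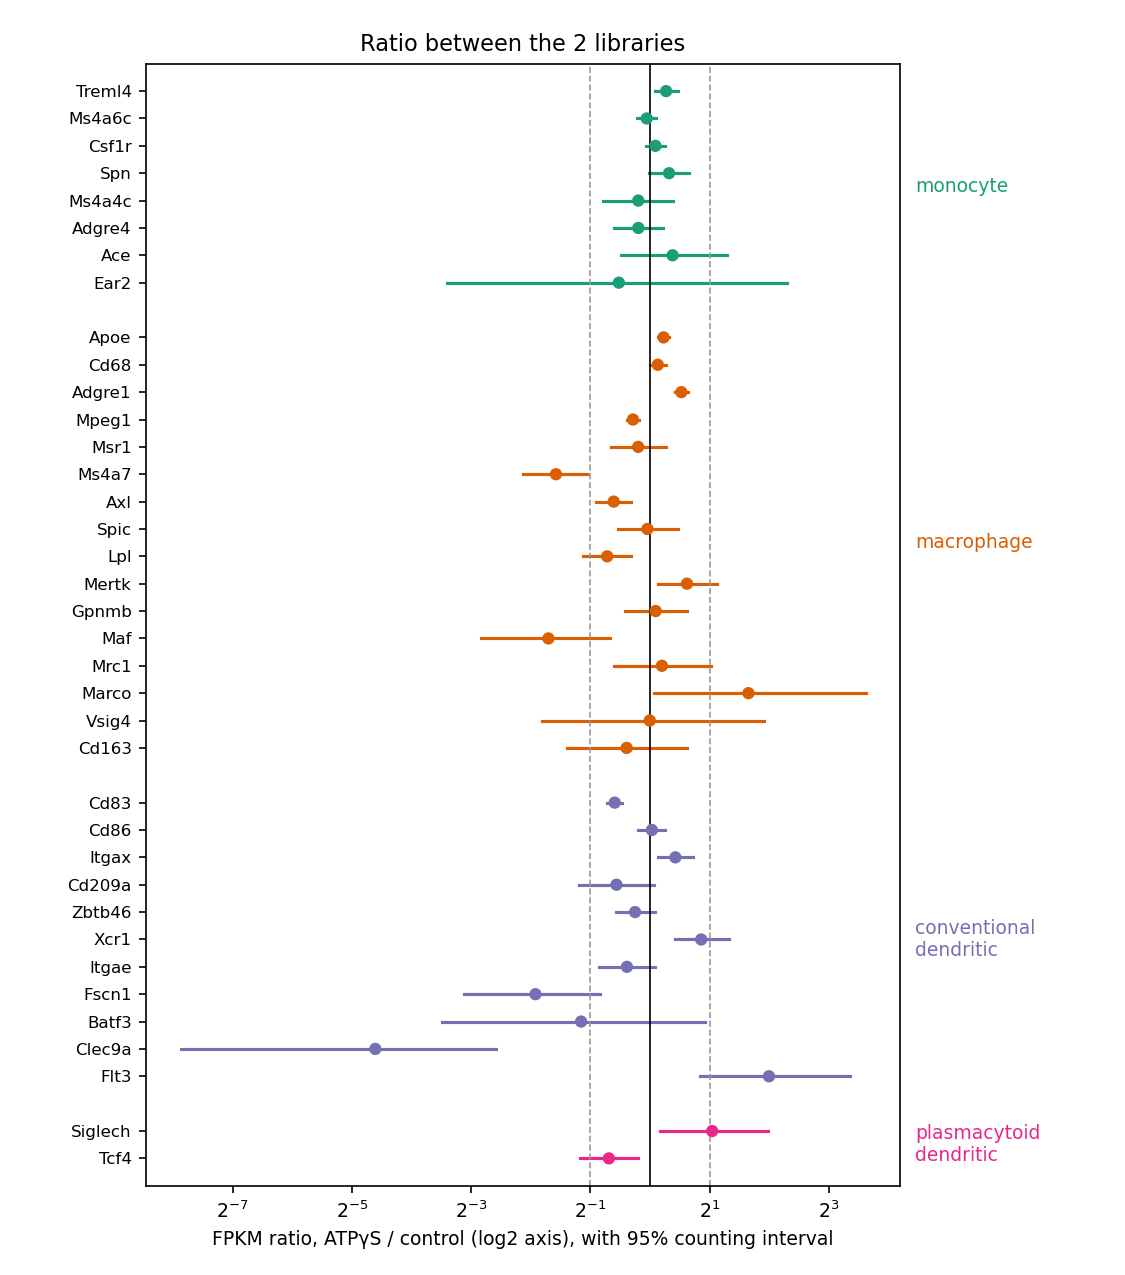
Ratio of FPKM, ATPγS over control (log2 axis), for each of the 37 genes, with the 95% counting interval from estimated reads as a bar; the solid line marks 1 and the dashed lines 2-fold. The intervals are narrow for abundant genes such as Apoe (1.10 to 1.24) and wide for scarce ones such as Ear2 (0.095 to 4.92).

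The conventional dendritic cell genes lay on both sides. Of the 11, 1 was higher by 2-fold or more and 2 lower by 2-fold or more, beside 13.8% and 9.91% of all genes. Under each scaling, 7 had a log2 ratio below 0, where 49.6% of all genes lay below 0 as deposited. The median was -0.34 (-0.23 when rescaled to a median of 0), beside 0.01 over all genes as deposited. Their summed level was 341 FPKM without and 265 FPKM with ATPγS, and without Cd83 it was 128 and 124 FPKM. The counting interval lay below 1 for 3 genes and above 1 for 3, beside 23.9% and 23.4% of all genes.

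The genes of type 1 conventional dendritic cells, which present antigen of dead cells to CD8 T cells, did not move together. Clec9a (chromosome 6, 129408862 to 129424763) stood at 4.82 and 0.198 FPKM, from about 34 and 2 reads, and the interval of its ratio was 0.0043 to 0.17. Xcr1, of the chemokine receptor typical of the same cells, was 1.81-fold higher in the ATPγS library, at 6.23 and 11.3 FPKM (1.33 to 2.50). Batf3, of the transcription factor these cells require, was listed at 3.64 and 1.63 FPKM, but from about 6 and 4 reads (0.089 to 1.90). Itgae, of the integrin CD103, stood at 9.22 and 7.06 FPKM (0.55 to 1.06). Clec9a and Xcr1, both markers of the same cell, thus differed in opposite directions beyond counting error.

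Genes of the wider dendritic lineage were split as well. Flt3 (chromosome 5, 147330741 to 147400489) stood at 0.946 and 3.78 FPKM, 3.99-fold higher in the ATPγS library from about 7 and 39 reads (interval 1.80 to 10.3). Zbtb46, of the transcription factor that marks conventional dendritic cells, stood at 13.2 and 11.1 FPKM (0.67 to 1.06). Cd209a, of a lectin of type 2 conventional dendritic cells and monocyte-derived cells, stood at 15.1 and 10.2 FPKM (0.44 to 1.04), and has close relatives in its gene cluster. Itgax, of the integrin CD11c that monocytes and macrophages also carry, was 1.34-fold higher at 17.7 and 23.9 FPKM (1.10 to 1.65). Flt3 and Itgax were thus higher beyond counting error, and Zbtb46 and Cd209a were within it.

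Of the 3 genes of dendritic cell activation and maturation, Cd83 and Fscn1 were lower and Cd86 was level. Cd83, of a surface protein of mature dendritic cells that other activated leukocytes induce too, was the most abundant dendritic gene at 213 and 141 FPKM, 1.51-fold lower in the ATPγS library (interval of the ratio 0.61 to 0.72). Cd86, of a costimulatory ligand for T cells, stood at 52.1 and 53.3 FPKM (0.88 to 1.20). Fscn1 (chromosome 5, 142960343 to 142973185) stood at 5.01 and 1.33 FPKM, 3.78-fold lower from about 29 and 10 reads (0.12 to 0.56).

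The plasmacytoid dendritic cell genes lay on opposite sides. Siglech, of a sialic acid-binding receptor of these cells, stood at 6.79 and 14.02 FPKM, 2.06-fold higher in the ATPγS library (interval 1.13 to 3.97) but just under 2-fold once 1 FPKM was added (log2 ratio 0.95). Tcf4, of the transcription factor E2-2 that sets their identity, stood at 8.78 and 5.45 FPKM, 1.61-fold lower (interval of the ratio 0.44 to 0.87). Tcf4 is also used by other cell types.

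Further genes by which these cells are recognised were taken from written lists. Which cells of these libraries expressed them was not tested. For the counts in these lists, 13.8% of all genes were higher by 2-fold or more and 9.91% lower. The counting interval lay wholly above 1 for 23.4% of all genes and wholly below 1 for 23.9%. Of 24 other monocyte genes, 1 was higher by 2-fold or more, 2 were lower by 2-fold or more, and the median log2 ratio was -0.18 (-0.071 when rescaled to a median of 0). The most abundant were Cd14, of the endotoxin co-receptor (2741 and 3424 FPKM), the transcription factor gene Cebpb (617 and 804 FPKM) and Nr4a1, of a nuclear receptor needed by patrolling monocytes (315 and 364 FPKM). Over the whole list, 8 genes lay above 0 and 16 below (9 and 15 after either rescaling), and the counting interval lay wholly above 1 for 6 and wholly below 1 for 8. Among the lower ones were Ccr2, of the chemokine receptor of classical monocytes (14.7 and 8.82 FPKM), and Cx3cr1, of that of patrolling monocytes (3.07 and 1.30 FPKM), both chosen after their values were seen. Plac8 stood at 231 and 118 FPKM, and Ear1, of the family of Ear2, at 5.08 and 14.1 FPKM. As listed, Ear1 and Ear2 lay on opposite sides of 0, but Ear2 rested on about 3 reads in each library. The interval of its ratio (0.095 to 4.92) includes 1.

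Of 27 other macrophage genes with a mean of at least 1 FPKM, 4 were higher by 2-fold or more and 0 lower. Among all genes these shares were 13.8% and 9.91%. The median was 0.096 (0.25 over the 29 genes that reached this level when rescaled to a median of 0). Of the 27, 17 lay above 0 and 10 below, and the counting interval lay above 1 for 8 and below 1 for 4. C1qc, C1qb and, chosen after its values were seen, C1qa encode the chains of complement C1q, made mainly by macrophages. They stood at 12.5 and 34.2, at 39.7 and 78.9, and at 20.4 and 25.6 FPKM. The interval of the C1qa ratio (0.86 to 1.85) includes 1. The protease gene Mmp12 stood at 7.25 and 16.8 FPKM. The other 2 past 2-fold, also chosen after their values were seen, were Siglec1, of sialoadhesin (1.35 and 5.88 FPKM), and Clec4f, of a lectin of Kupffer cells (0.827 and 4.46 FPKM). Fabp4 (28.8 and 18.4 FPKM) and Dab2 (11.7 and 7.94 FPKM), chosen in the same way, had intervals wholly below 1. The abundant genes Hmox1 (2331 and 2249 FPKM), Cd9 (2103 and 2017 FPKM) and Cd63 (767 and 820 FPKM) hardly differed.

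Of 28 other conventional dendritic cell genes, 2 were higher by 2-fold or more and 2 lower by 2-fold or more, with a median of -0.23 (-0.098 when rescaled to a median of 0). Ccr7, of the receptor that guides mature dendritic cells to lymph nodes, stood at 167 and 181 FPKM, beside the lower Cd83 and Fscn1. Naaa, of a lysosomal amidase rich in type 1 cells, stood at 4.42 and 12.9 FPKM, and Il12b at 16.1 and 9.34 FPKM. Of 13 other plasmacytoid genes, 0 were higher by 2-fold or more, 1 was lower by 2-fold or more and 11 lay below 0 (10 after either rescaling), with a median of -0.44. Irf7, of the interferon regulator (144 and 114 FPKM), Klk1 (54.7 and 29.1 FPKM) and the chemokine receptor gene Ccr9 (23.4 and 15.02 FPKM) were lower and the transcription factor gene Spib was higher (11.3 and 18.9 FPKM). Siglech thus lay on the other side from most genes of that list.

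**Figure D4:**
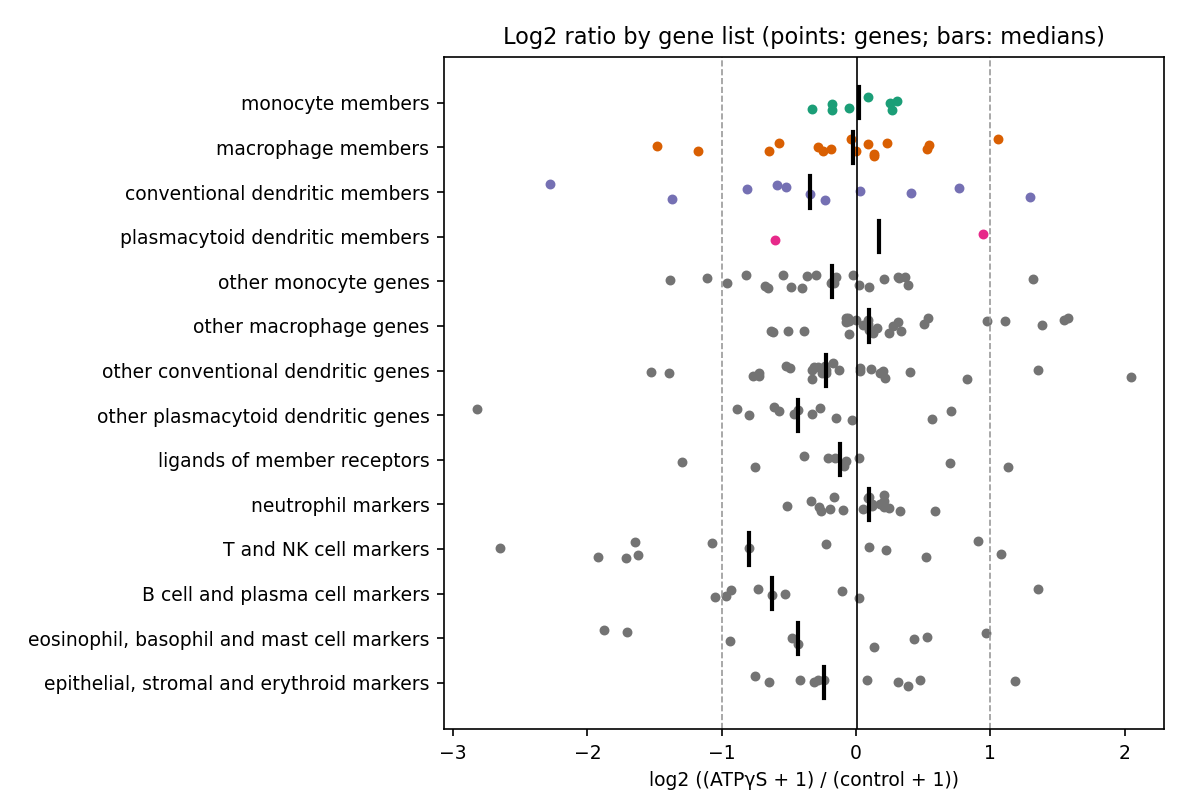
Log2 ratio (ATPγS over control, 1 FPKM added) of each gene with a mean of at least 1 FPKM, by gene list, with a bar at each list's median; the solid line is the median of all genes (0.01) and the dashed lines mark 2-fold. The monocyte members and the neutrophil markers stay within 2-fold, while the T and NK cell markers have the lowest median (-0.80).

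Ligands of the receptors among the 37 were measured in the same cells. Csf1, of the main ligand of the Csf1r product, stood at 224 and 228 FPKM, and the alternative ligand gene Il34 at only 0.711 and 1.77 FPKM. Gas6 and Pros1, of the ligands of MERTK and AXL, stood at 19.3 and 17.2 and at 12.4 and 10.6 FPKM. As deposited, these 4 differed within counting error, as did Xcl1, of the XCR1 ligand, at 5.03 and 12.2 FPKM (interval 0.91 to 7.76). The partners of CD86 on T cells split, with Cd28 at 10.3 and 9.77 FPKM and Ctla4 at 25.5 and 9.77 FPKM. Of the adhesion and uptake partners, Cdh1, of the E-cadherin bound by CD103, stood at 10.3 and 5.74 FPKM, Icam1, of a ligand of leukocyte integrins, at 592 and 557 FPKM, and Calr, of calreticulin, which dying cells expose, at 139 and 106 FPKM.

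Markers of other cell types differed between the libraries too, where 13.8% of all genes were higher by 2-fold or more and 9.91% lower. Of 13 T and NK cell markers, 6 were lower by 2-fold or more and 1 higher by 2-fold or more, with summed levels of 354 and 220 FPKM. Summed B cell and plasma cell markers stood at 1343 and 948 FPKM, with 1 of 9 higher by 2-fold or more and 1 lower by 2-fold or more. For eosinophil, basophil and mast cell markers the sums were 130 and 88.3 FPKM, with 2 of 9 lower by 2-fold or more. Epithelial, stromal and erythroid markers summed to 960 and 849 FPKM, with 1 of 11 higher by 2-fold or more, and without the haemoglobin gene Hba-a1 to 235 and 233 FPKM. No gene of these 4 lists was listed at 0 in either library, and their part in the differences of the 37 genes was not tested. In such bulk libraries, fewer cells of a type and less RNA per cell cannot be told apart.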

How the data were processed

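RNA of the 2 libraries was made into full-length cDNA with the SMART-Seq HT kit and into libraries with the Nextera kit, per the labels' protocols. This preparation does not mark strand, so reads of overlapping antisense genes cannot be told apart. The submitters' processing notes name the build mm10 and, as tools, Cufflinks 2.2.1, SAMtools 0.1.19, Bowtie2 2.2.3 and TopHat2 2.0.13. Each gene symbol has 1 deposited FPKM value per library. The file headers do not name the unit, which was taken from Cufflinks and not contradicted by the values. Neither the annotation nor any option is given in the sources used here.

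The log2 ratio compares ATPγS with control after adding 1 FPKM to each, so it is too small for scarce genes. Folds given for single genes leave out the added 1. Depth was searched between 500000 and 4000000 fragments, as the value at which FPKM times coding length of 1430 olfactory and vomeronasal receptor genes was most often whole. Whole numbers, to within 0.05 reads, were found for 64.8% (control) and 64.5% (ATPγS) of values under 10 reads, against 10% by chance. Multiples of these depths could fit as well, but they lie above the range searched and were not tried. Reads per gene are approximate, from the GENCODE M21 transcript (build GRCm38, which is mm10) with the longest coding part, found for 95.7% of symbols. Steps were checked on simulated data with Python 3.11.15 and SciPy 1.17.1.

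The 37 genes and all lists were chosen with earlier results of these data known. All 37 are named. Of the other lists, the 3 most abundant genes and the 3 with the largest log2 ratio at a mean of at least 5 FPKM could be named, and ligands at a mean of at least 1 FPKM. Alternatives were pseudocounts of 0.1 and 5, filters, rescaling, and other fold thresholds.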

Additional observations from a re-analysis of the deposited data

How the results depend on the processing

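With a pseudocount of 5, 0 of the 37 genes were at least 2-fold higher and 1 (Ms4a7) at least 2-fold lower, beside 3.06% and 2.52% of all genes. A mean of at least 5 FPKM also gave counts of 0 and 1, with fewer members (26) entering, beside 7.48% and 9.04%. A 1.5-fold threshold gave 4 higher and 8 lower, beside 24.1% and 20.7%, and a 3-fold threshold 0 higher and 1 (Clec9a) lower, beside 6.3% and 3.34%. With a pseudocount of 0.1 (3 higher, 5 lower), no filter, or rescaling, the counts stayed within 1.5 times. The shares of all genes were 18.6% and 13.4% with that pseudocount, and 13.4% and 9.16% without a filter. They were 14.7% and 9.1% when rescaled to the same sum, and 16.2% and 8.09% when rescaled to a median of 0. A further pair of alternatives was chosen after seeing the data. These were a minimum of 20 estimated reads summed over both libraries and an interval on the same side as the fold. Both kept 2 higher and 4 lower, and the share of all genes under them was not computed. The median log2 ratio of -0.05 became 0.078 after rescaling to a median of 0 and 0.0013 after rescaling to the same sum, so it has no direction. These rescalings shifted ratios by up to 0.13 and 0.05, and Siglech passed 2-fold after the first and with a pseudocount of 0.1. None of the 6 genes past 2-fold changed sign under another pseudocount or scaling, but this was fixed in advance. A pseudocount keeps the sign, and the rescalings were small beside a 2-fold difference. No paired analysis was possible because each group has 1 library, and leaving out a library was not possible either. Depth limits Ear2, Batf3, Vsig4, Marco and Cd163, which rest on under 20 reads in each library.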
